A study of Macaca fascicularis with 3 samples.

Results

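Pericytes of the extraocular muscles (EOM), the small muscles that move the eye, were described in a library of whole cells from the cynomolgus monkey, Macaca fascicularis. They were the cell barcodes with at most 20% of their unique molecular identifiers (UMIs, 1 for each captured RNA molecule) on mitochondrial genes, and with at least 3 UMIs summed over HIGD1B, RGS5, COX4I2, KCNJ8 and NDUFA4L2 and more than over MYH11, ACTG2, CNN1, PLN and LMOD1. This rule took 303 of the 8979 barcodes of the library, or 4.14% (95% exact binomial interval 3.70 to 4.62) of the 7316 within the mitochondrial limit. Smooth muscle cells, the comparison class, held at least 4 UMIs of the second set and more than of the first, and numbered 1703. The study, named for nuclei of EOM and of quadriceps muscle, holds 37973 barcodes in 3 libraries, each the only one of its group: whole cells of EOM, nuclei of EOM, and nuclei of a thigh muscle, the quadriceps femoris (QFM). No genotype or treatment is named for any group. How many animals there were, their age and sex and the way the tissue was dissociated were not given in the labels. With 1 library a group there was no test between animals, and no p-value is given. Each 95% interval covers counting error only.

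Pericytes and smooth muscle cells are the mural cells of blood vessels. Smooth muscle cells ring arteries, arterioles and veins and hold tone with an actin and myosin apparatus, while pericytes sit on capillaries and post-capillary venules inside the basement membrane they share with the endothelium. Pericytes are kept on the vessel by endothelial PDGF-B acting on their receptor PDGFRB and by Notch signals through NOTCH3, and their membrane potential is set in part by a potassium channel that closes when ATP is plentiful, built of KCNJ8 and ABCC9. Skeletal muscle is densely capillarised, and the extraocular muscles are known for their high blood flow.

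The pericytes held 386060 UMIs, with a median of 876 per cell (quartiles 647.5 and 1499.5, range 500 to 9502), 554 genes and 12.2% mitochondrial UMIs. The smooth muscle cells were deeper, with 2903116 UMIs, a median of 1606 per cell, 786 genes and 13.4% mitochondrial UMIs. No barcode of the library held fewer than 500 UMIs. The whole-cell library shares no barcode with either library of nuclei, whose barcodes are shorter, and the 2 libraries of nuclei share 51. A doublet caller (Scrublet) marked 8 of the 303 pericytes (2.64%) and 84 of the smooth muscle cells (4.93%); these barcodes were kept.

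The rule set both limits on measured counts, so the 10 rule genes are given as a description. Among the pericytes the first set summed to a median of 11 UMIs per cell, with quartiles of 5 and 17. Just inside the limit were 46 barcodes with exactly 3 such UMIs (median depth 1366.5 UMIs), and just outside were 95 with exactly 2 (median depth 1154). Another 183 barcodes had 3 or more but fewer than of the second set, 8 were tied, and 64 met the counts but were over the mitochondrial limit. The 170 pericytes with 10 or more UMIs of the first set were shallow cells, with a median depth of 772 UMIs. Of the second set, 182 pericytes (60.1%) had no UMI, 62 had 1, 23 had 2 and 36 had 3 or more.

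**Figure D1:**
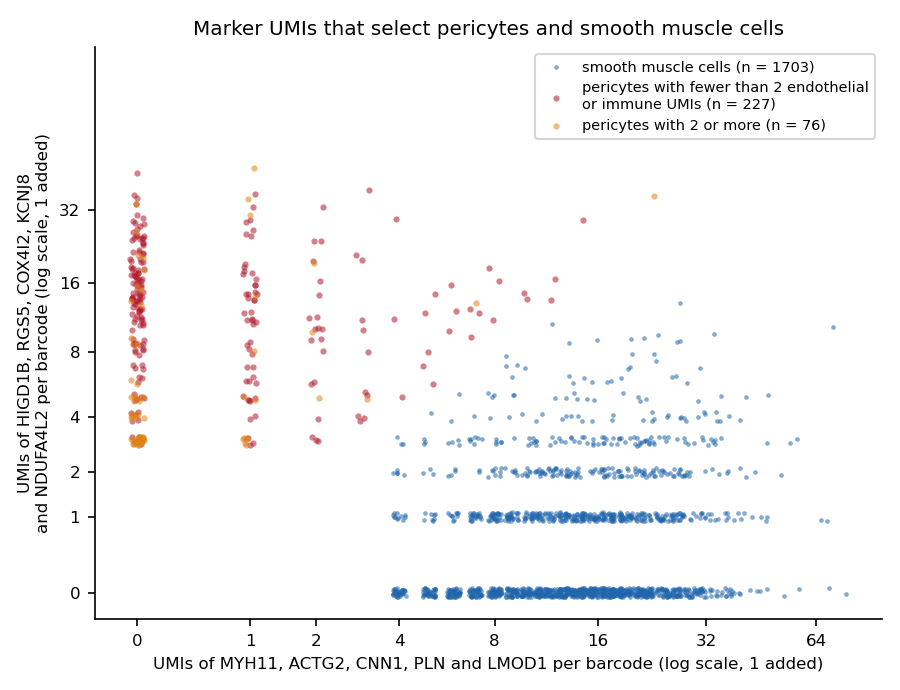
Each point is a barcode within the mitochondrial limit, placed by its UMIs of the second rule set and of the first on log2(UMIs + 1) axes, with pericytes split by whether they hold at least 2 endothelial or immune UMIs. The 303 pericytes lie above the diagonal and the 1703 smooth muscle cells below it, and many of the 76 mixed pericytes sit at 3 or 4 marker UMIs.

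Not every selected barcode read as a pericyte. Of the 303, 76 (25.1%) held at least 2 UMIs summed over the endothelial genes PECAM1, VWF, CDH5, CLDN5 and EMCN or over immune genes, and these mixed barcodes carried 43.9% of all pericyte UMIs. They were deep (median 1765 UMIs) and had few marker UMIs (median 4), and 40 of them held more endothelial than marker UMIs. Of the 69 pericytes whose marker UMIs were all RGS5, 50 were mixed, against 17 of the 170 with 10 or more marker UMIs. A list of 10 endothelial genes summed to 5771 CPM (the counts of a gene or list as parts per 1e6 UMIs of the cells summed) in the mixed barcodes, to 259 in the other 227 and to 8554 in the endothelial cells of the library. The 227 are called endothelial-free below and hold 216586 UMIs, with a median of 765 UMIs and 13 marker UMIs per cell. They are compared with the 1622 endothelial-free smooth muscle cells, in which the endothelial list summed to 104 CPM. Whether the mixed barcodes are 2 cells in 1 droplet, endothelial cells with RGS5 or pericytes with captured endothelial RNA was not tested. Counts and medians over gene lists are therefore given for all 303 and for the 227, and each value of a single gene is given for both or for the set that is named.

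The label was checked by clustering all cells without the 10 rule genes. One cluster of 159 cells held 150 of the pericytes (49.5%), and these were 94.3% of that cluster. Its leading genes were FAM162B, SLC26A7, EGFLAM, EPHB6, GUCY1A2, ADORA2B, CYGB and SUCNR1. They were ranked by the ratio to all other cells after a small constant was added to both CPM values. It took 142 of the 227 endothelial-free pericytes (62.6%), while 55 of the 227 fell in a cluster of 1110 cells of which 1031 were smooth muscle cells by the rule. The mixed pericytes lay elsewhere: 26 in a cluster of 776, 26 in a cluster of 536 and 12 in a cluster of 146. At a resolution of 0.5 the largest share of pericytes in 1 cluster was 54.1%, and at a resolution of 2 it was 47.2%.

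All rule genes are listed here by what they do. RGS5, which shortens signalling by G-protein-coupled receptors, stood at 6089.7 CPM in pericytes, 294 in smooth muscle cells and 134 in endothelial cells, and 97.4% of pericytes, 24.4% of smooth muscle cells and 15.6% of endothelial cells held a UMI of it. With every cell thinned to 500 UMIs these shares were 87.5%, 11.3% and 7.19%. KCNJ8, the pore of the ATP-sensitive potassium channel, was seen in 13.9% of pericytes, 1.23% of smooth muscle cells and 0.0654% of endothelial cells (thinned 10.9%, 0.352% and 0%). The other markers, COX4I2, NDUFA4L2 and HIGD1B, were seen in 63.0%, 55.4% and 52.5% of pericytes. At least 3 of the 5 markers were seen in 180 pericytes (59.4%) and in 12 smooth muscle cells.

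COX4I2, NDUFA4L2 and HIGD1B encode variants of mitochondrial proteins that sit with the respiratory chain, and each has a paralogue used by most cells. COX4I2 made up 71.4% (95% interval 67.9 to 74.7) of the UMIs of COX4I2 and COX4I1 together in pericytes, 79.3% in the endothelial-free pericytes, 21.1% in smooth muscle cells and 1.44% in endothelial cells. NDUFA4L2 made up 67.7% of its pair with NDUFA4 in pericytes and 78.2% in the endothelial-free ones, against 0.310% in smooth muscle cells. HIGD1B made up 89.6% of its pair with HIGD1A in pericytes, 92.1% in the endothelial-free ones and 23.1% in smooth muscle cells. The ordinary members were not chosen on. COX4I1 was at 521 CPM in pericytes and 582 in smooth muscle cells, a log2 ratio of -0.16 (95% interval -0.38 to 0.05). NDUFA4 was lower in pericytes, at 611 against 1773 CPM, a log2 ratio of -1.54 (-1.73 to -1.35) and of -1.64 in the endothelial-free cells. The NDUFA4 position is thus the one of the 3 at which the ordinary member was at least 2-fold lower than in smooth muscle cells. In the other classes NDUFA4 was nearer its pericyte level, at 588 CPM in endothelial cells, 445 in fibroblasts and 533 in immune cells.

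**Figure D2:**
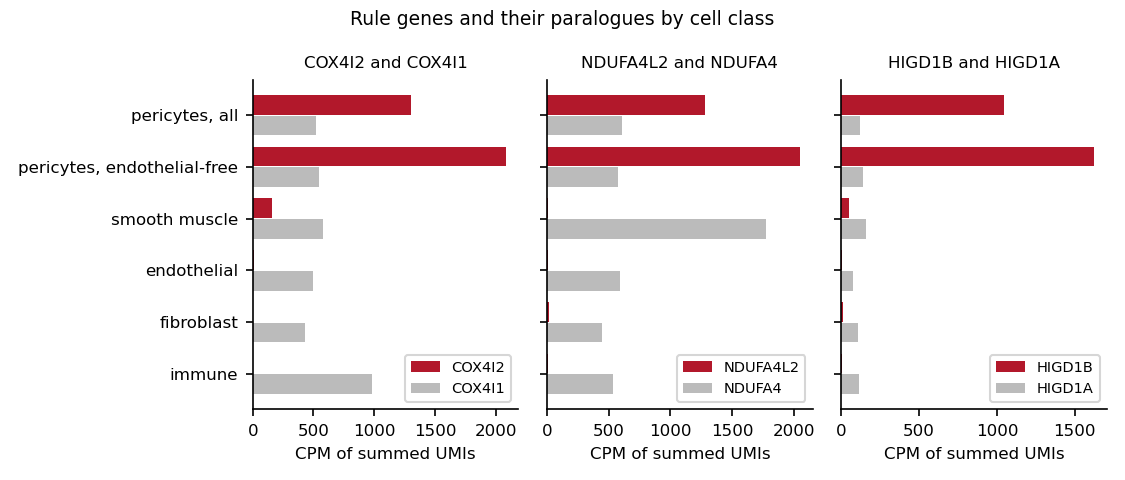
Bars show the CPM of each rule gene (COX4I2, NDUFA4L2 or HIGD1B) and of its paralogue (COX4I1, NDUFA4 or HIGD1A). They are given for all pericytes, endothelial-free pericytes, and the smooth muscle, endothelial, fibroblast and immune cells of the whole-cell library. The rule gene takes 67.7% to 89.6% of the pair in pericytes and at most 23.1% in smooth muscle cells.

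Outside the rule genes, 9700 genes had at least 20 counts over both classes. Of these, 2250 were at least 2-fold higher in pericytes (23.2%) and 831 at least 2-fold lower (8.57%), and the median log2 ratio was 0.30. In the endothelial-free cells 9012 genes were measured, of which 2022 were higher (22.4%) and 765 lower (8.49%), with a median of 0.29. Scaling by the median of the gene ratios in place of the total moved every ratio down by 0.34 (by 0.27 in the endothelial-free cells). On that scale 1439 genes were higher and 1367 lower, so the share of higher genes among those past 2-fold went from 73.0% to 51.3%, and from 72.6% to 52.5% in the endothelial-free cells. All ratios below are on the total-count scale, and "higher" or "lower" in a count of genes means at least 2-fold.

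The genes of largest ratio that were not used in the choice were, for the most part, low in every other class. SLC26A7, an anion exchanger, had 60 counts in pericytes and 1 in smooth muscle cells, a log2 ratio of 8.82 with an interval of 6.28 to 14.14. FAM162B had 86 counts against 2, a log2 ratio of 8.34 (6.44 to 11.41), and was at 0.902 CPM in endothelial cells. MASP1, a protease of the lectin pathway of complement, was at 114 CPM against 0.689, and CYGB, the oxygen-binding globin cytoglobin, at 215 against 1.38. Their log2 ratios were 7.37 and 7.29, and 8.04 and 7.90 in the endothelial-free cells. STEAP4, a metalloreductase, stood at 179 CPM in pericytes and 2.07 in smooth muscle cells (log2 ratio 6.43, endothelial-free 7.31). TNFRSF21, also called death receptor 6, was at 207 against 3.44 CPM (log2 ratio 5.91, endothelial-free 6.63) and was also present in immune cells, at 161 CPM. ADORA2B, a low-affinity adenosine receptor, was at 101 against 2.07 CPM (log2 ratio 5.61, endothelial-free 6.31). The protocadherin PCDH17, FRMD3 and C8H8orf4 had log2 ratios of 5.37, 5.18 and 6.19, and of 6.09, 5.82 and 6.61 in the endothelial-free cells.

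Of the 15 genes of largest ratio, 5 were higher in endothelial cells than in pericytes: APOA1, EDN1, IFIT1, MYCT1 and TMEM88. EDN1, the precursor of the vasoconstrictor endothelin, was such a gene: it was at 422 CPM in all pericytes, 944 in the mixed ones, 13.9 in the endothelial-free ones and 819 in endothelial cells. Its log2 ratio was 4.97 over all pericytes and 0.65 (-1.73 to 2.37) over the endothelial-free ones. APOA1 had no count in the endothelial-free pericytes. In the endothelial-free cells the same rule kept the other 10 of the 15 and named NR1H3, SUCNR1, C9H10orf128, SCN7A and EPHB6 in place of these. NR1H3, the oxysterol receptor LXR-alpha, had a log2 ratio of 6.92, and SCN7A, a sodium channel family member, of 5.41. SUCNR1, the succinate receptor, had 25 counts in the endothelial-free pericytes and 0 in the smooth muscle cells. With that 0 set to a floor of 3 counts for the class, the gene was 105-fold higher, a log2 ratio of 6.71 with a lower limit of 6.30.

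The genes of smallest ratio follow, over all pericytes unless said otherwise. P2RX1, an ATP-gated cation channel through which sympathetic nerves depolarise smooth muscle, was at 51.8 CPM in pericytes and 1123 in smooth muscle cells, a log2 ratio of -4.44 (-5.15 to -3.81) and of -4.16 in the endothelial-free cells. The intermediate filament gene DES stood at 36.3 against 531 CPM (log2 ratio -3.87, endothelial-free -3.07), the actin gene ACTA1 at 25.9 against 395 (-3.93, endothelial-free -3.43) and the calmodulin-like gene CALML6 at 25.9 against 368 (-3.83). RAMP1, which joins CALCRL to form the receptor of the vasodilator CGRP, was at 28.5 against 353 CPM (-3.63). CASQ2, the calcium buffer of the sarcoplasmic reticulum, had a log2 ratio of -3.39, the troponin gene TNNC1 of -3.01 and the ectonucleotidase gene ENTPD3 of -3.44. MUSTN1 was the most abundant of this group, at 311 against 2551 CPM (-3.04). FAM150B had 1 count in pericytes and a log2 ratio of -5.77, with an interval of -11.08 to -3.28. FAM46B had no count in pericytes and 110.2 CPM in smooth muscle cells, 14.2-fold lower when the pericyte count is set to the floor of 3. C11H12orf75, ITIH3, SNCG and TCEAL2 had log2 ratios of -3.05, -3.41, -3.15 and -3.01. Of the 15 genes of smallest ratio, 13 were also among the 15 of the endothelial-free cells.

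**Figure D3:**
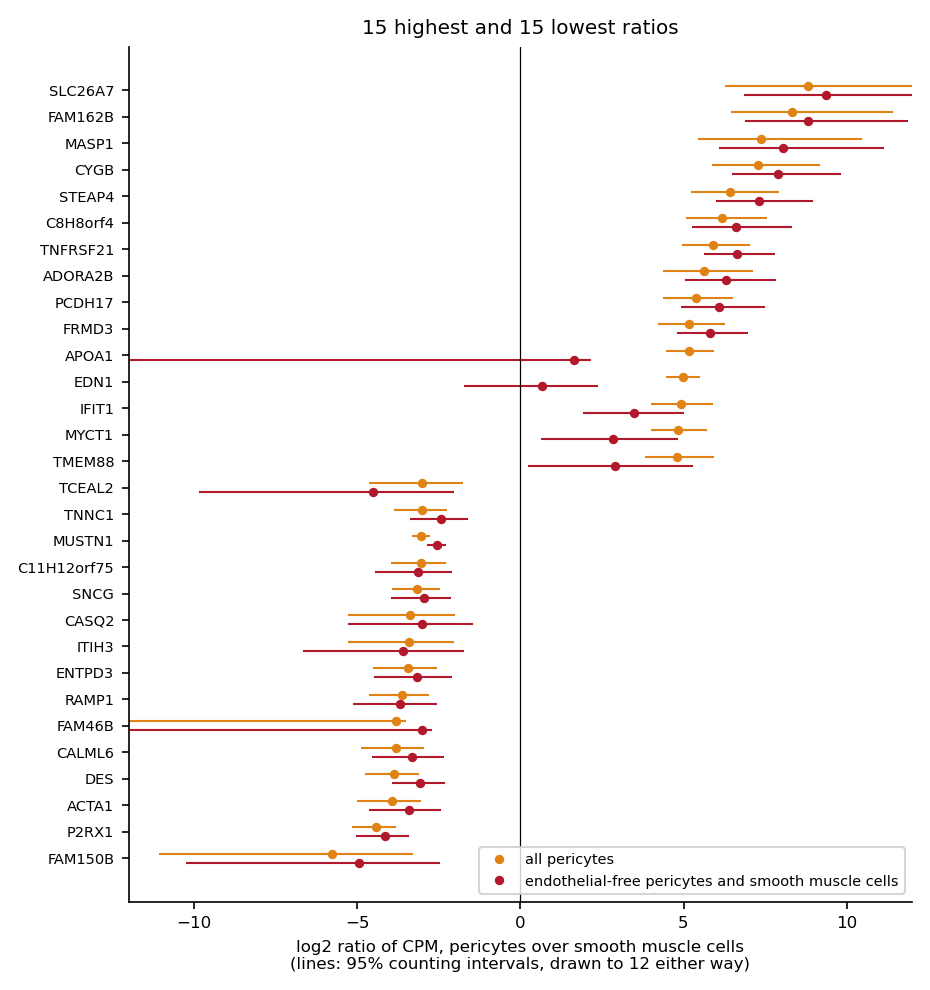
Log2 ratios of pericytes over smooth muscle cells for the 15 highest and the 15 lowest genes outside the rule genes, with 95% counting intervals, for all 303 pericytes and for the 227 endothelial-free ones. Of the genes of smallest ratio, 13 stay among the lowest 15 without the mixed barcodes, while APOA1, EDN1, IFIT1, MYCT1 and TMEM88 move towards 0; a gene with no count in a class is placed with a floor of 3 counts.

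Genes of 17 lists were then read by function. Each list count is to be read beside the shares over all measured genes, 23.2% higher and 8.57% lower. For the endothelial-free cells these shares were 22.4% and 8.49%. Genes named below that lie outside the fixed naming rule (such as ABCC9, CD248, GUCY1A2, IL34 and PDE1C) were picked from their list after their values were seen. Values of single genes are over the endothelial-free cells unless all pericytes are named. Among mural and pericyte identity genes, 10 of 21 measured were higher in pericytes and 1 lower, with a median log2 ratio of 0.88 beside 0.30 over all genes. In the endothelial-free cells 16 of 21 were higher and 1 lower, with a median of 1.37 beside 0.29. Over all pericytes PDGFRB stood at 290.1 CPM against 85.8, a log2 ratio of 1.76 (1.42 to 2.09), and at 485 CPM with a ratio of 2.48 in the endothelial-free cells. Over all pericytes NOTCH3 was at 544 against 322 CPM (0.75, endothelial-free 1.48). The transcription factor gene EBF1 had a log2 ratio of 1.37 over all pericytes and 1.74 over the endothelial-free ones. CD248 (endosialin) was at 189 against 39.3 CPM over all pericytes (2.27, endothelial-free 2.80), but at 1149 CPM in fibroblasts. MCAM (CD146) marked both classes, at 836 CPM in the endothelial-free pericytes and 860.0 in the endothelial-free smooth muscle cells, a log2 ratio of -0.04 (-0.27 to 0.18). ASPN was the one identity gene that was lower in both comparisons, at -1.97 and -1.16, on 4 counts in pericytes.

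PDGF, Notch and TGF-beta genes were less uniform, with 14 of 33 higher and 5 lower (median 0.70), and 11 of 29 higher and 3 lower in the endothelial-free cells (median 0.59). ID4, a helix-loop-helix inhibitor downstream of BMP signals, was at 540.2 CPM in the endothelial-free pericytes and 104 in smooth muscle cells (2.38), while ID2 was at 102 against 319 (-1.65). The receptor gene TGFBR2 had a log2 ratio of 1.85 over all pericytes, and 1.94 in the endothelial-free cells. HES1, a Notch target, was at 826 against 607 CPM (0.45). ENG, an endothelial co-receptor of this family, had a log2 ratio of 3.39 over all pericytes and 1.74 over the endothelial-free ones, at 712 CPM in endothelial cells.

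Contractile genes were mostly lower in pericytes. Of 35 measured, 29 were lower and none higher (median -1.89), and 22 were lower and none higher in the endothelial-free cells (median -1.23). ACTA2, smooth muscle actin, was nevertheless abundant, at 3919 CPM in all pericytes and 6159 in the endothelial-free ones beside 24247 in smooth muscle cells and 254 in endothelial cells. Its log2 ratio was -2.63 (-2.70 to -2.56) and -2.01 (-2.09 to -1.93) in the endothelial-free cells. The myosin light chain gene MYL9 stood at 4506 against 15477 CPM (-1.78), TAGLN at 1629.8 against 6067 (-1.90) and tropomyosin TPM2 at 1528 against 6746 (-2.14), all over endothelial-free cells. The actin-binding gene CALD1 was closer, at 2549 against 3524 CPM (-0.47). PPP1R14A, an inhibitor of myosin phosphatase, had a log2 ratio of -1.05 there, and the regulatory phosphatase subunit PPP1R12A of 0.23. MYOCD, the co-activator that drives this gene set, had 10 counts in all pericytes and a log2 ratio of -0.92 with an interval of -2.01 to 0.00, and of -0.41 (-1.65 to 0.61) in the endothelial-free cells.

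Ion channels and pumps were found on both sides. Of 33 measured 12 were higher and 6 lower (median 0.65), and 14 of 31 were higher and 6 lower in the endothelial-free cells (median 0.90). ABCC9, the sulphonylurea receptor that pairs with the rule gene KCNJ8, was at 127 CPM over all pericytes against 5.86 (4.44), and 203 CPM in the endothelial-free cells. ANO1, a calcium-activated chloride channel, was at 263 against 8.83 CPM (4.90), and SLC12A2, the sodium, potassium and chloride importer that loads cells with chloride, at 272 against 13.6 (4.32). TRPC4, a receptor-operated cation channel, had a log2 ratio of 2.71, and GJC1 (connexin 45) of 2.61. Potassium channel subunits differed: KCNMB1, of the large-conductance channel, was at 87.7 against 248 CPM (-1.50). Of the voltage-gated channels, KCNAB1 was at 129 against 253 (-0.97, within 2-fold) and KCNE4 had a log2 ratio of 1.24 (0.10 to 2.23). The channel pore KCNMA1 had 4 counts in all pericytes and a log2 ratio of -2.80 (-4.69 to -1.42). RYR2, the calcium release channel of the sarcoplasmic reticulum, had 1 count in all pericytes and a log2 ratio of -4.13 (-9.45 to -1.63), while ITPR1, the inositol trisphosphate receptor, another calcium release channel, had 0.26. CACNA1C, the L-type calcium channel, had 9 counts in all pericytes, each of them in an endothelial-free one. Its ratio was 0.44 (-0.77 to 1.48) over all pericytes and 1.21 (-0.01 to 2.25) over the endothelial-free ones, where it counts among the 14 higher; both intervals include 0.

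Receptors for vasoactive signals followed no single direction: 12 of 25 were higher and 7 lower (median 0.74), and 10 of 24 were higher and 3 lower in the endothelial-free cells (median 0.84). EDNRA, the endothelin receptor of mural cells, was at 323 against 198 CPM in the endothelial-free cells (0.71) and EDNRB at 143 against 29.1 (2.30). The vasopressin receptor AVPR1A had a log2 ratio of 3.26 (2.10 to 4.39) on 13 counts, and the parathyroid hormone receptor PTH1R of 2.45 on 23. NPY1R, the receptor for the sympathetic co-transmitter neuropeptide Y, was at 166 against 64.0 CPM (1.38). RAMP2, RAMP3, S1PR1 and CALCRL had log2 ratios of 3.73, 3.40, 3.36 and 1.55 over all pericytes, but stood at 2914, 258, 415 and 173 CPM in endothelial cells. In the endothelial-free pericytes these 4 genes were at 87.7, 18.5, 18.5 and 46.2 CPM.

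Cyclic nucleotide genes gave 12 of 26 higher and 1 lower (median 0.61), and 8 of 22 higher and 1 lower in the endothelial-free cells (median 0.64). The subunits of the nitric oxide receptor guanylate cyclase were higher in the endothelial-free pericytes for GUCY1A1, at 993 against 432 CPM (1.20), and stood at 512 against 281 for GUCY1B1 (0.87). The alternative subunit GUCY1A2 was at 162 against 4.05 CPM (5.32). PRKG1, the kinase that cyclic GMP activates, had a ratio of 0.09 (-0.36 to 0.50) there. Phosphodiesterases PDE1C, PDE7B and PDE8B had log2 ratios of 5.52, 3.65 and 5.23 in the endothelial-free cells, on 11, 14 and 15 counts, while PDE5A had 0.46. The PDE1C counts of both classes together were below the minimum for a measured gene there. PDE1C is therefore not among the 8 higher, and its ratio rests on few counts. Of 10 other RGS genes measured none was higher, 4 were lower and 6 were within 2-fold (median -0.67), and in the endothelial-free cells 2 of 9 were lower and 7 within. RGS16 was the most abundant, at 591 against 1348 CPM over all pericytes (-1.19, endothelial-free -1.17).

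Growth factor and crosstalk genes gave 17 of 33 higher and 4 lower (median 1.06), and 15 of 29 higher and 4 lower in the endothelial-free cells (median 1.03). IGFBP7, a secreted insulin-like growth factor binding protein, was at 5698 against 1844 CPM in the endothelial-free cells (1.63), and 96.0% of those pericytes held a UMI of it. IGFBP5 stood at 1149.7 against 487 (1.24), while IGFBP2 was at 268 against 793 (-1.57). APOD was also lower, at 914 against 2269 CPM (-1.31). VEGFA, the main growth factor of capillaries, had a log2 ratio of 1.92 on 22 counts, FGF7 of 1.22 and pleiotrophin, PTN, of 2.71. ANGPT1, which mural cells send to the endothelial receptor TIE2, was at 180.1 against 159.6 CPM (0.17, interval -0.34 to 0.65). CXCL12 differed with the mixed barcodes: 1261 CPM over all pericytes and 452 over the endothelial-free ones, against 59.2 in smooth muscle cells (2.93) and 2367 in endothelial cells.

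Matrix genes moved with barcodes that held fibroblast UMIs. Of the interstitial and elastic matrix genes 14 of 37 were higher and 4 lower (median 0.64), and 19 of 33 were higher and 3 lower in the endothelial-free cells (median 1.17). At least 2 UMIs of 5 fibroblast genes were held by 70 pericytes (23.1%) and by 147 smooth muscle cells (8.63%). With these removed too, 179 pericytes and 1490 smooth muscle cells remained, and 9 of 27 matrix genes were higher and 6 lower (median 0.57), against 16 of 30 and 3 (median 1.08) before, the 5 fibroblast genes left out. BGN (biglycan) then had a log2 ratio of 1.99 and 1.90 before, COL5A3 of 4.89 and 4.80, and COL14A1 of 1.35 and 1.25. MFAP4 went from 1.17 to -2.33, and FMOD had no count left in pericytes. DCN (decorin) was at 1824 CPM in the endothelial-free pericytes, 447 in smooth muscle cells and 22498 in fibroblasts, and its ratio went from 2.03 to 1.21. With this step STEAP4 and CYGB stood at 7.95 and 8.56, and 15 of 20 identity genes were higher (median 1.58), against 16 of 21 before. Basement membrane genes were close to even, with 4 of 22 higher and 1 lower (median 0.18, or -0.16 by the median of ratios) and 6 higher and 1 lower in the endothelial-free cells (median 0.38). COL4A1 was at 175 against 135 CPM (0.38), and LAMC1 at 171 against 135 (0.34). SPARC, which binds collagen IV, was the exception among the abundant ones, at 1754 against 431 (2.03) and 1.91 with the fibroblast barcodes removed, and LAMA2 had 3.23 and 3.72.

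Among integrin and adhesion genes 7 of 26 were higher and 4 lower (median 0.55), and 8 of 23 were higher and 2 lower in the endothelial-free cells (median 0.62). Over all genes 23.2% were higher and 8.57% lower, and 22.4% and 8.49% in the endothelial-free cells. By the median of ratios 4 genes of this list were higher and 5 lower in each set of cells. CD36, the scavenger receptor that takes up fatty acids, was at 388 against 12.5 CPM (4.95) in the endothelial-free cells and at 505 in endothelial cells. ITGA7, a laminin-binding integrin chain, was at 323 against 86.1 (1.91), and ITGA1, a collagen-binding one, at 457 against 199 (1.20). The tetraspanin gene CD81 was at 5319 against 2211 CPM (1.27). CAVIN1, a coat protein of caveolae, was lower, at 263 against 1002 (-1.93), while CAV1 had a log2 ratio of 0.39.

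Of the immune genes 22 of 28 were higher and 4 lower (median 1.88). In the endothelial-free cells 18 of 27 were higher and 3 lower (median 1.62), and with fibroblast barcodes removed too 17 of 26 and 5 (median 1.42). The list summed to 17153 CPM in the mixed barcodes and 5614 in the endothelial-free ones. IL34, a ligand of the macrophage receptor CSF1R, was at 291 against 15.1 CPM (4.27) and at 3.61 in endothelial cells. Complement genes C1R, C1S and SERPING1 had log2 ratios of 2.41, 2.97 and 1.64, beside fibroblast levels of 1582, 1079 and 1814 CPM. With fibroblast barcodes removed too, the ratios of these 3 genes were 3.47, 3.60 and 1.65. B2M, the light chain of MHC class I, was at 1076 CPM in the endothelial-free pericytes, 352 in smooth muscle cells and 4161 in endothelial cells (1.61), and the interferon-induced gene IFITM1 at 734, 73.9 and 2767 (3.31). IFI27 stood at 1719.9 CPM over all pericytes but at 212 over the endothelial-free ones, with a ratio of 1.94. The macrophage list summed to 316 CPM in pericytes and 111 in smooth muscle cells, against 13629 in the immune cells. The T or NK cell list summed to 158 and 119 CPM in all pericytes and smooth muscle cells. In the endothelial-free cells the macrophage list summed to 259 against 72.5 CPM, with 4 of 4 measured genes higher. There the T or NK cell list summed to 282 against 90.1 CPM, with 5 of 5 higher. In the 22 endothelial-free pericytes with 3 or 4 marker UMIs, these lists summed to 1133 and 977 CPM.

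Solute carriers gave 10 of 23 higher and 2 lower (median 0.88), and 9 of 20 higher and 1 lower in the endothelial-free cells (median 0.85). SLC38A11, an amino acid transporter, was at 356 against 61.8 CPM (2.52) and the water channel gene AQP1 at 263 against 76.9 (1.78). The efflux pumps of endothelial barriers ABCB1 and ABCG2 stood at 298 and 254 CPM over all pericytes and at 27.7 and 27.7 over the endothelial-free ones. Among transcription factors 13 of 33 were higher and 7 lower (median 0.56), and 13 of 32 higher and 3 lower in the endothelial-free cells (median 0.13, or -0.14 by the median of ratios). MEF2C was at 1404 against 238 CPM (2.56), the vascular factor NR2F2 at 771 against 258 (1.58), TBX2 at 609 against 206 (1.57) and FOXF2, a pericyte factor of the brain, had a log2 ratio of 2.71 on 12 counts.

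Respiratory chain subunits gave none of 39 higher and 2 lower (median -0.46; endothelial-free -0.32). UQCRB was among the 2, at 51.8 against 207 CPM over all cells and a log2 ratio of -1.70 in the endothelial-free ones. Hypoxia response genes gave 9 of 32 higher (28.1%) and 3 lower (9.38%), near the 23.2% and 8.57% over all genes (list median -0.15). In the endothelial-free cells 8 were higher and 2 lower, and the median was 0.08 by totals and -0.18 by the median of ratios. HIF1A had a log2 ratio of 0.13 and GAPDH of -0.13 there. SLC2A1, the glucose transporter, had 3.74 over all pericytes and 0.55 (-1.15 to 1.88) over the endothelial-free ones. Immediate-early and stress genes, which tissue dissociation can induce, gave 6 of 36 higher and 3 lower over all pericytes (median 0.32, or -0.02 by the median of ratios) and 1 higher and 6 lower over the endothelial-free ones (median -0.09). FOS was at 3841 against 3702 CPM there (0.05), JUN at 3772 against 2634 (0.52) and GADD45B at 1307 against 3288 (-1.33).

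**Figure D4:**
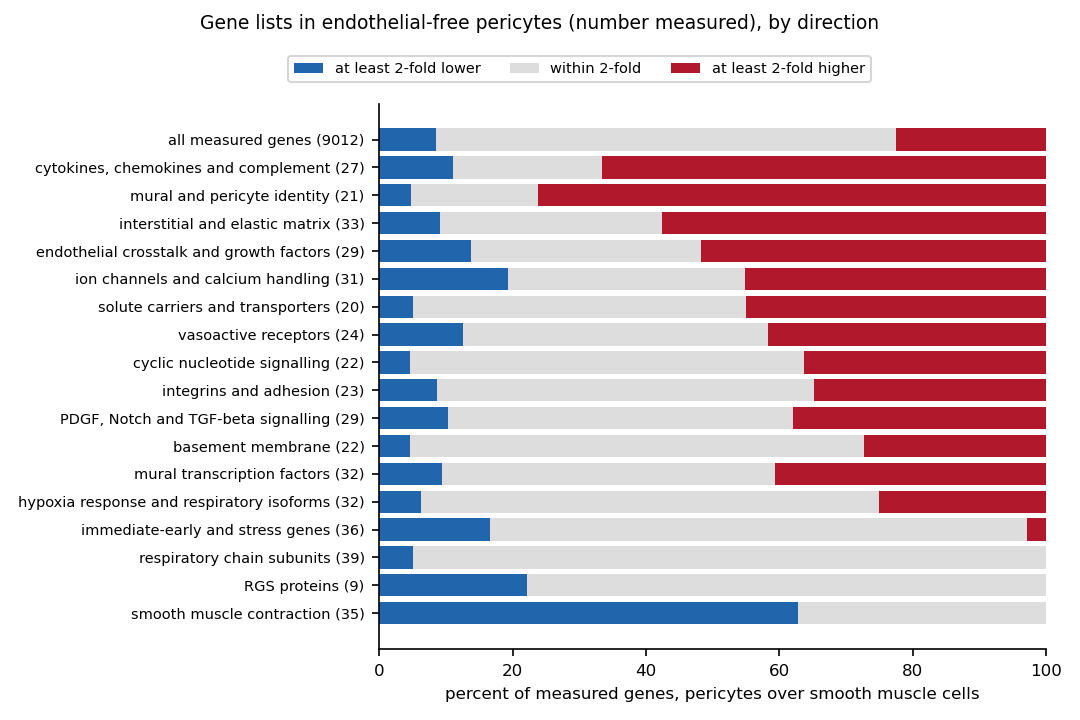
For each of the 17 lists and for all measured genes, bars show the percent of measured genes at least 2-fold higher (to the right) and at least 2-fold lower (to the left) in the 227 endothelial-free pericytes than in the 1622 smooth muscle cells, on the total-count scale. Over all genes these are 22.4% and 8.49%; contraction genes have 22 of 35 lower and none higher, and mural identity genes 16 of 21 higher.

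Beyond the rule, the endothelial-free pericytes were not filtered for smooth muscle UMIs. They were split by whether they held a UMI of the second rule set, a value that the rule used. Differences in contractile genes can follow from such a split, which is a description only. The 125 cells without a UMI of the second set had a median of 676 UMIs, and the 102 with at least 1 had 991.5. The contraction list summed to 20903 CPM in the first and 41648 in the second, and the mural identity list to 10189 and 6737. ACTA2 was at 2615 CPM in cells without and 9145 in cells with such a UMI, TAGLN at 727 and 2390.3, and NDUFA4 at 252 and 842. In the other direction KCNJ8 was at 465 and 59.5 CPM, ABCC9 at 333 and 93.6, STEAP4 at 515 and 102, MASP1 at 343 and 68.1, CYGB at 606 and 136 and CD36 at 616 and 196. NOTCH3 and MCAM hardly differed, at 959 and 876 and at 838 and 834. RGS5 stood at 10744 and 7035. The endothelial list summed to 404 and 136 CPM and the fibroblast list to 4241 and 3709 in the 2 subsets. HBB, a haemoglobin gene of red blood cells, was at 2969 and 42.5 CPM.

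**Figure D5:**
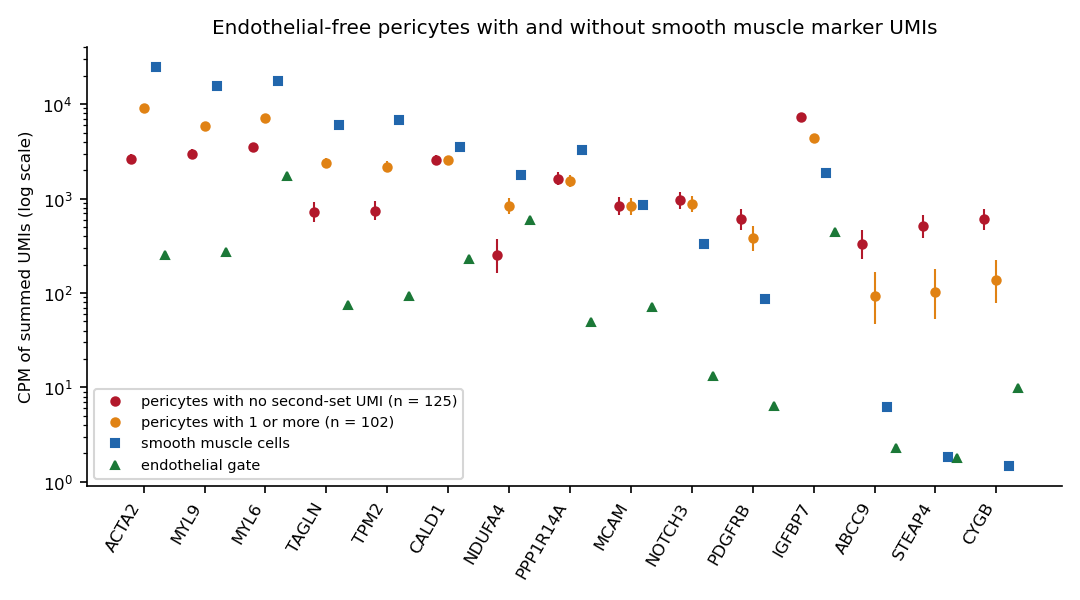
CPM on a log10 axis of selected genes in the endothelial-free pericytes without (125 cells) and with (102 cells) a UMI of the second rule set, with 95% counting intervals. Squares and triangles mark smooth muscle cells and endothelial cells. ABCC9, STEAP4 and CYGB are higher in the cells without, ACTA2, TAGLN and NDUFA4 in the cells with, and NOTCH3 and MCAM lie together.

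The same rule was applied to the nuclei, where counts include unspliced RNA to an extent not given in the sources used here and where the PLN symbol was not matched. In EOM nuclei it took 262 pericyte and 250 smooth muscle nuclei, and in QFM nuclei 192 and 1250. Only 14.1% of those 1250 held a MYH11 UMI (61.6% in EOM), so smooth muscle nuclei were restricted to those with at least 2 MYH11 UMIs and nuclei with endothelial or immune UMIs were removed, which left 184 and 92 in EOM and 127 and 124 in QFM. The list of muscle fibre genes summed to 6161 CPM in the EOM pericyte nuclei and 10108 in the QFM ones, so RNA of muscle fibres was present in both. In EOM nuclei 754 of 7343 genes were higher in pericytes (10.3%) and 439 lower (5.98%), and in QFM nuclei 747 of 8209 were higher (9.1%) and 551 lower (6.71%). By the rule alone the shares were 4.85% higher and 1.86% lower in EOM nuclei and 21.8% and 10.5% in QFM nuclei, and with the MYH11 limit alone 4.34% and 1.94% in EOM and 10.5% and 5.42% in QFM. Of the named genes higher in the endothelial-free cells, 39 were measured in each library of nuclei. In EOM nuclei 21 of them were higher, 1 was lower and 17 were within 2-fold, and in QFM nuclei 18 were higher, 4 lower and 17 within. Of those lower in the cells, 8 of 16 were lower and none higher in EOM nuclei, and 5 of 18 lower and 1 higher in QFM nuclei. The mural identity list gave 5 of 16 higher and 2 lower in EOM nuclei (median 0.42) and 6 of 16 higher and 3 lower in QFM nuclei (median 0.31). STEAP4 had log2 ratios of 5.14 in EOM nuclei and 3.61 in QFM nuclei, MASP1 of 2.37 and 2.28, NR1H3 of 3.01 and 3.67, and ABCC9 of 2.85 and 1.72. PDE1C gave 4.64 and 2.74, IL34 2.51 and 3.01, CD36 3.16 and 3.13, and ADORA2B 1.79 and 1.77. Lower in both were P2RX1, at -6.03 and -5.53, ENTPD3, at -4.05 and -7.27, KCNAB1, at -3.29 and -3.44, and the integrin gene ITGA8, at -7.76 and -6.95. MYOCD was at -3.37 and -4.83. Some genes higher in the cells had ratios below 0 in both libraries: SLC38A11, at -0.84 and -2.51, TBX2, at -0.89 and -2.04, the phosphodiesterase gene PDE3A, at -1.32 and -0.52, PTN, at -1.73 and -2.88, and NPY1R, at -0.78 and -0.97. RAMP1 and DES, among the lowest in cells, were at -0.13 and 0.17 and at 0.01 and 0.24. The libraries differ in preparation as well as in tissue, and no comparison of levels between them was made.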

How the data were processed

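Each deposited matrix holds whole-number UMI counts, not normalised, that the authors made with Cell Ranger 7.2.0 and Seurat 5.2.1, per the submitters' processing notes; the sources used here name no genome build or annotation and do not say if reads in introns counted. The cell matrix has 33368 features, of which 17393 carry a symbol in the file, 723 were named by gene identifier and 20 by an older symbol through a RefSeq gene table (assembly T2T-MFA8v1.1), and 15232 stayed unnamed. Barcodes with at most 20% mitochondrial UMIs were classed by the rules given in the text. The library held 12248405 UMIs. Raw counts were summed over the barcodes of a class, expressed as CPM of that class's UMIs, and compared as a log2 ratio with a conditional exact binomial 95% interval. Genes counted as measured when both classes together held 20 or more of their UMIs, and a class with 0 counts was set to a floor of 3 for the class. Cells are not replicates and each group is 1 library, so no test was run. Clustering used the Leiden method in scanpy 1.11.5, without the 10 rule genes; doublets were called but kept. The computations used Python 3.11.15, numpy 2.4.6, scipy 1.17.1 and pandas 2.3.3, and were tested on simulated data. No sequences are shown.

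The genes named in the text are the 10 rule genes; the 15 genes of highest and the 15 of lowest ratio that reached 100 CPM in the class where they were higher, with a level there above the other gated classes pooled; and in each of 17 lists up to 6 members highest in pericytes and up to 4 highest in smooth muscle cells, with at least 50 CPM; some of these genes are not reported here. The members, the lists and the markers of other cell types were chosen with earlier results of these data known. Alternatives tried were a 10% mitochondrial limit, removal of called doublets, stricter class limits, other scalings, equal weight per cell, thinning to 500 UMIs, other count minimums and removal of mixed barcodes. The lists of other cell types summed as follows in all pericytes and in smooth muscle cells, in CPM: endothelial 2678 and 226, fibroblast 2764 and 3053, macrophage 316 and 111, T or NK cell 158 and 119, Schwann cell 660.5 and 283, myofibre 344 and 1518, satellite cell 225 and 615, mast cell 57.0 and 5.86, red blood cell 800.4 and 203.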

Additional observations from a re-analysis of the deposited data

Results flagged for a closer look

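In 4 flagged genes among those named, the log2 ratio in EOM nuclei lay on the other side of 0 from that in QFM nuclei. Smooth muscle nuclei were restricted to those with at least 2 MYH11 UMIs, and nuclei with endothelial or immune UMIs were removed. The 4 are not all such genes, as the ratios of RAMP1, given above, also lay on either side of 0. With 1 library each, these differences were not tested. TAGLN, an actin-binding protein of smooth muscle, had a pericyte over smooth muscle log2 ratio of -1.72 in EOM nuclei and 0.24 in QFM nuclei. TNNC1, a troponin gene also made by slow muscle fibres, had -1.13 and 1.97. EDNRA, an endothelin receptor, had -0.56 and 0.53. EBF1, a transcription factor of mural and stromal cells, had 0.33 and -0.27. The list of muscle fibre genes summed to 6161 and 4261 CPM in the EOM pericyte and smooth muscle nuclei, and to 10108 and 7116 CPM in the QFM ones; its part in these values was not tested. No group had 4 libraries, so no library could be checked for standing apart from its group.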

How the results depend on the processing

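Genes at least 2-fold higher in pericytes numbered 2250, and 700 with at most 10% mitochondrial UMIs (87 pericytes and 258 smooth muscle cells), 1439 by the median of ratios, 1165 with cells thinned to 500 UMIs, 8989 with every gene of at least 1 count and 506 with at least 100 counts; genes at least 2-fold lower numbered 831, and 1367 by the median of ratios and 359 with at least 100 counts. Fewer genes could be measured under the 10% limit, the thinning and the higher minimum. With every gene of at least 1 count, 17974 genes entered, and a class with 0 counts was set to the floor. The same floor gives a higher CPM in the smaller pericyte class. APOA1, with no count in the endothelial-free pericytes, had a log2 ratio of 1.65 there by the floor. The 8989 can thus include genes with few or no pericyte counts, and how many was not tested. The cause of the other changes was not tested. The median log2 ratio of the mural identity list was 0.88, and 2.37 under the 10% limit, 1.41 with thinning, 1.37 with every gene of at least 1 count and 1.37 without mixed barcodes. That of the contraction list was -1.89, and -1.23 without mixed barcodes. Of 1446 values of 148 named genes under these settings, 952 stayed within the counting interval and 493 moved beyond it. A change of sign was counted apart only for genes at least 2-fold higher or lower in the main comparison. There was 1: FN1, from -1.22 to 0.20 under the 10% limit. Genes within 2-fold that crossed 0 are among the other values, such as ZFP36, from 0.45 to -0.64 without mixed barcodes. In EOM nuclei 606 genes were higher and 233 lower by the rule, and 439 were lower after both restrictions. In QFM nuclei 2998 were higher by the rule, 1037 with the MYH11 limit and 747 after both, and 1446, 536 and 551 were lower. The restrictions of nuclei, the removal of fibroblast barcodes and the repeat of the naming rule without mixed barcodes were chosen after seeing the data. No paired analysis was possible because each group is 1 library, and no library could be left out. Depth limits genes with few pericyte counts, and nothing here measures variation between animals.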
